A study of Mus musculus with 4 samples.

Results

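Oxidative phosphorylation is built from 2 genomes, and the data described here are the transcripts of both in aortic endothelial cells (ECs) of the mouse. Nuclear genes were taken by symbol: those that start with Nduf (without the Ndufaf assembly factors), Uqcr, Cox4 to Cox8 or Atp5, with Sdha, Sdhb, Sdhc and Sdhd, and without pseudogenes marked -ps. This gave 83 of 16443 listed genes. Beside them stood all 35 rows listed on chrM, the mitochondrial chromosome, which are 13 coding genes, 2 ribosomal RNAs and 20 transfer RNAs. A well was kept as a cell if nuclear genes held 1000 or more of its UMIs (unique molecular identifiers, 1 per captured transcript) and chrM no more than 25%, which kept 441 of 1536 wells.

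The cells were CD31+ CD45- TO-PRO-3- cells sorted from aortas, processed by SORT-seq, in which each well carries its own barcode and the 3′ ends of transcripts are sequenced. The groups compared held 2 mice each, 1 plate of 384 wells per mouse. The mice labelled EC-KO were Epas1fl/fl with Cdh5Cre/+, and the mice labelled EC-WT were Epas1fl/fl with Cdh5+/+, so that the controls carried the floxed allele but no Cre. Per the study's methods the Cre was Cdh5-CreERT2, driven by an endothelial promoter and made active by tamoxifen. Tamoxifen (2 mg a day for 5 days) was given to all mice when 6 weeks old, and aortas were taken 2 weeks after it. Epas1 encodes HIF-2alpha, a transcription factor that is stable when oxygen is low. The 384 well barcodes are the same on every plate, and EC-KO mouse 2 and EC-WT mouse 1 were named on the same flow cell while each other plate was on a flow cell of its own.

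Values of the 4 mice are given in the order EC-KO mouse 1, EC-KO mouse 2, EC-WT mouse 1, EC-WT mouse 2. The plates gave 157, 98, 114 and 72 cells, with 1088901, 851118, 648977 and 566088 nuclear UMIs. This was 255 cells labelled EC-KO and 186 labelled EC-WT, or 261 and 190 with no limit on chrM, and cells labelled EC-KO were the more numerous under 9 of 9 pairs of limits tried. The study's methods state the opposite order, with more cells from EC-WT than from EC-KO mice, and its numbers lie near those kept here with the genotypes exchanged; its limits on cells are not given in the sources used here. Epas1, the targeted gene, stood at 2930, 3148, 3324 and 2351 UMIs per 1000000 nuclear UMIs (CPM), so its 3′-end tags did not separate the groups, and a tag outside the deleted part does not check the label. EC-KO and EC-WT therefore name the deposited labels throughout, and every direction between genotypes would turn if these were exchanged. The 14 endothelial markers, among them Pecam1, which encodes CD31, and Cdh5, summed to 12930 to 16099 CPM. The 11 smooth muscle markers summed to 4752 and 6611 CPM in the EC-KO mice and to 969 and 1274 CPM in the EC-WT mice, with 0, 1, 1 and 1 of the 11 at 0. The 8 fibroblast markers were also higher in the EC-KO mice, at 3142 and 1580 against 753 and 1297 CPM, with 0, 1, 1 and 2 of the 8 at 0. The 4 cardiomyocyte markers with a row had 26.6 and 21.1 against 9.25 and 14.1 CPM, and the 5 adipocyte markers with a row at most 4.62 CPM. Of 10 immune markers the 5 with a row summed to at most 12.9 CPM.

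The respiratory chain in the inner mitochondrial membrane passes electrons from NADH (complex I) or succinate (complex II) through complexes III and IV to oxygen, and the proton gradient that complexes I, III and IV build drives ATP synthase (complex V). Complexes I, III, IV and V join subunits made in the cytosol from nuclear genes with a few made inside the mitochondrion from chrM genes, whereas complex II is wholly nuclear. The chrM strands are transcribed as long precursors that are cut at the transfer RNAs, so its mRNAs and ribosomal RNAs start from shared transcripts. Endothelial cells are known to draw much of their ATP from glycolysis.

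chrM UMIs far outnumbered those of the nuclear members. In the kept cells chrM took 89377, 86905, 55642 and 57972 UMIs and the 83 nuclear members took 10935, 8703, 7479 and 6145. That was 8.17, 9.99, 7.44 and 9.43 chrM UMIs for each nuclear member UMI. These chrM UMIs include the transfer RNAs and the ribosomal RNAs, which encode no subunit. The ribosomal RNAs held 32.1, 23.9, 21.9 and 23.9% of them. Ratios for coding rows are given by complex below. Since a UMI stands for 1 transcript tagged at its 3′ end, levels were compared without dividing by length.

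The most abundant chrM row was mt-Rnr2, the large mitochondrial ribosomal RNA, at 19171, 18050, 14201 and 18926 CPM. The most abundant chrM mRNA was mtAtp6, a proton channel subunit of ATP synthase, at 10786, 15252, 13942 and 16213 CPM. Every other coding row on the same strand lay between them and mtNd4l, a complex I subunit, at 802, 842, 578 and 708 CPM. After mtAtp6 came mtCytb (the only chrM subunit of complex III, mean 10546 CPM), mtNd4 (complex I, 9234), mtCo2 (which takes electrons into complex IV, 8316), mtNd2 (7023) and mtCo1 (which holds the oxygen-binding centre, 6137). The order then ran through mt-Rnr1, the small ribosomal RNA (5930), mtCo3 (3988), mtNd1 (3711), mtNd5 (2795), mtNd3 (1531) and mtAtp8 (1393).

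**Figure D1:**
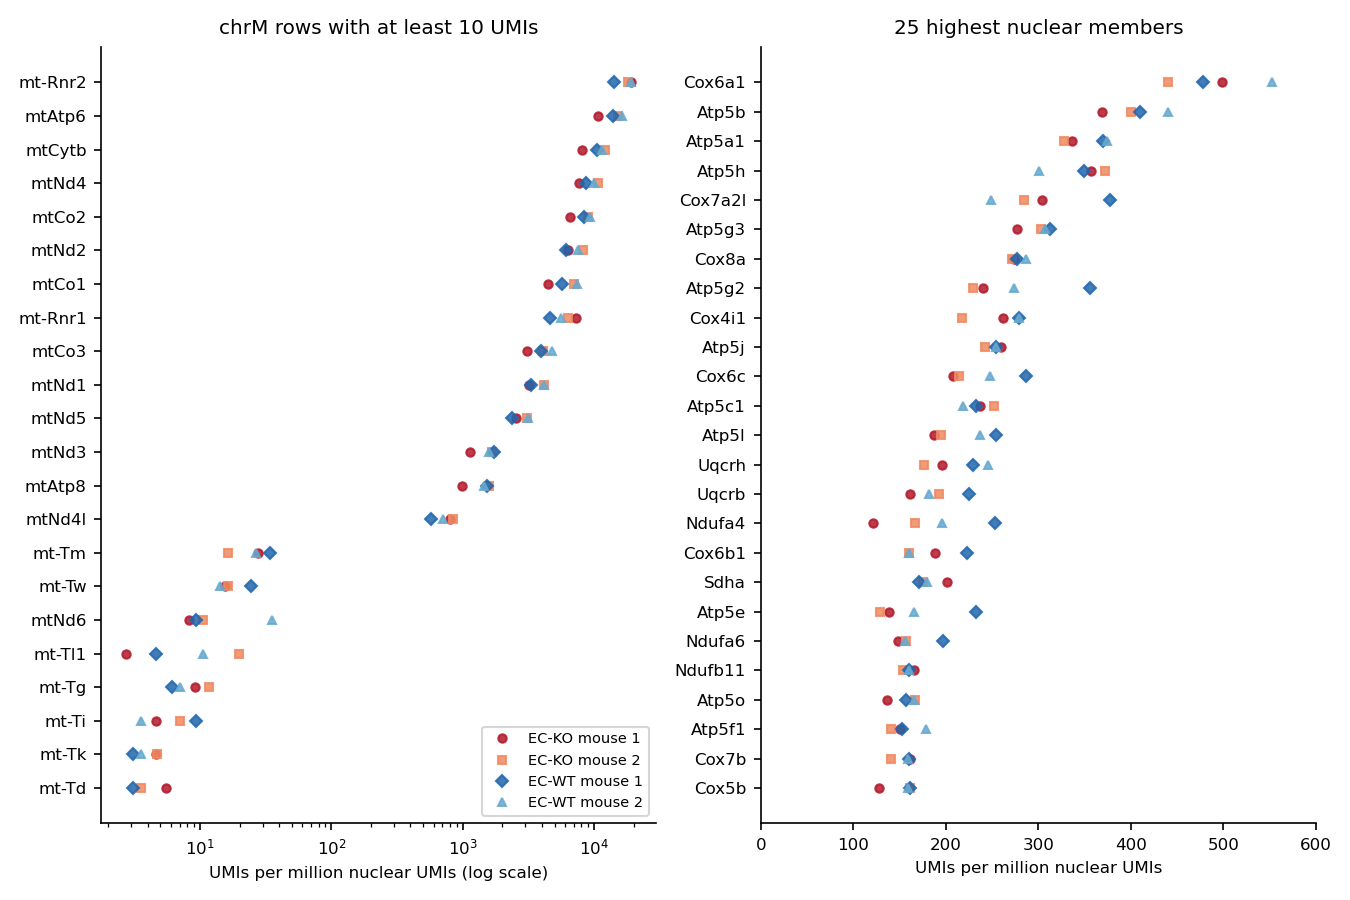
Levels in each mouse, in UMIs per 1000000 nuclear UMIs, of the 22 chrM rows with at least 10 UMIs (left, log axis, values of 0 not drawn) and of the 25 highest nuclear members (right, linear axis from 0); each symbol is 1 mouse. The chrM coding rows and ribosomal RNAs other than mtNd6 lie above every nuclear member, from 578 to 19171 CPM against at most 553 CPM for Cox6a1.

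The exception was mtNd6, the complex I subunit that is the only coding gene on the other strand. It had 9, 9, 6 and 20 UMIs, against 2784, 2627, 1549 and 1784 UMIs of mtNd5, which ends beside it. On GRCm38 mtNd5 lies at chrM:11742-13565 on the plus strand and mtNd6 at chrM:13552-14070 on the minus strand, so the 3′ ends overlap by 14 bases. The transfer RNAs, which carry no poly(A) tail in their mature form, took 55 to 88 UMIs per mouse over all 20 rows. The highest of them, mt-Tm, had 16.4 to 33.9 CPM.

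Pairs of chrM genes share sequence, which bears on how their UMIs can be assigned. The reading frame of mt-Atp8 (chrM:7766-7969) runs into that of mt-Atp6 (chrM:7927-8607) for 43 bases, and mt-Nd4l and mt-Nd4 share 7 bases. The 43 shared bases are shown because mtAtp8 and mtAtp6 stand on a joint mRNA in the cell, with the start codon of mt-Atp6 in capitals:
mt-Atp8 and mt-Atp6, chrM:7927-7969, plus strand: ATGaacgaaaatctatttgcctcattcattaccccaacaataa
Listed apart, mtAtp6 had 42952 UMIs over the 4 mice and mtAtp8 had 4254, and mtNd4 had 28644 where mtNd4l had 2366. In both pairs the row at the 3′ end of the joint transcript held the larger count. Of the 15 chrM rRNAs and coding genes, 8 also shared at least 40 of their last 100 bases in a run with annotated nuclear copies, for which the files list no row.

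The nuclear members ranged over 3 orders of magnitude. Cox6a1, a small complex IV subunit, was the highest at 499, 441, 478 and 553 CPM. Atp5b, the catalytic beta subunit of ATP synthase, followed at 369, 401, 410 and 440 CPM. Of the 12 highest members 7 belonged to ATP synthase: Atp5b, Atp5a1 (the alpha subunit, mean 352 CPM), Atp5h (a stalk subunit, 345), Atp5g3 and Atp5g2 (identical mature ring subunits from different genes, 300 and 275), Atp5j (253) and Atp5c1 (the gamma subunit that turns in the ring, 235). The remaining 5 were the complex IV genes Cox6a1, Cox8a (277 CPM), Cox4i1 (259) and Cox6c (239), and Cox7a2l, known as a factor in supercomplexes of III and IV (304). Cox6a1 stood above Atp5b in every mouse, the lowest of its values at 441 and the highest of Atp5b at 440 CPM, and the ranges of all later neighbours in this order overlapped.

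The lowest members that passed the filter on low counts were the complex I genes Ndufa10 (mean 46.9 CPM), Ndufa9 (37.7) and Ndufs8 (34.2) and Atp5sl, a gene linked to complex I assembly (23.6). The filter (edgeR's filterByExpr) kept 75 members. The 8 others, Cox4i2, Cox6b2, Cox7a1, Cox7b2, Cox8b, Cox8c, Ndufa4l2 and Atp5s, had means of 0.230 to 9.55 CPM.

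Subunits with alternative genes were almost wholly of the common kind. Cox4i1 had 285, 185, 181 and 158 UMIs, and Cox4i2, the form known from lung and from low oxygen, had 2, 5, 2 and 0. Cox7a2, the form found in most tissues, had 147, 85, 123 and 74 UMIs, and the heart and muscle form Cox7a1 had 1, 3, 0 and 2. Ndufa4, now counted as a complex IV subunit, had 132, 142, 164 and 111 UMIs, and its hypoxia-inducible relative Ndufa4l2 had 1 UMI in EC-KO mouse 1 and 0 in the other 3 mice. Counts this low separate no group: 3 UMIs, the upper limit that a count of 0 allows, correspond to 2.76, 3.52, 4.62 and 5.30 CPM, for counting error only.

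Cox6b1 had 577 UMIs over the 4 mice and the testis form Cox6b2 had 15. Cox8a had 871, the muscle form Cox8b 1 and the testis form Cox8c 2. Cox7b had 490 and Cox7b2 had 2. The 3 genes of the ATP synthase ring subunit were an exception, since all were expressed, Atp5g3 (936 UMIs) and Atp5g2 (843) above Atp5g1 (329) in each mouse.

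**Figure D2:**
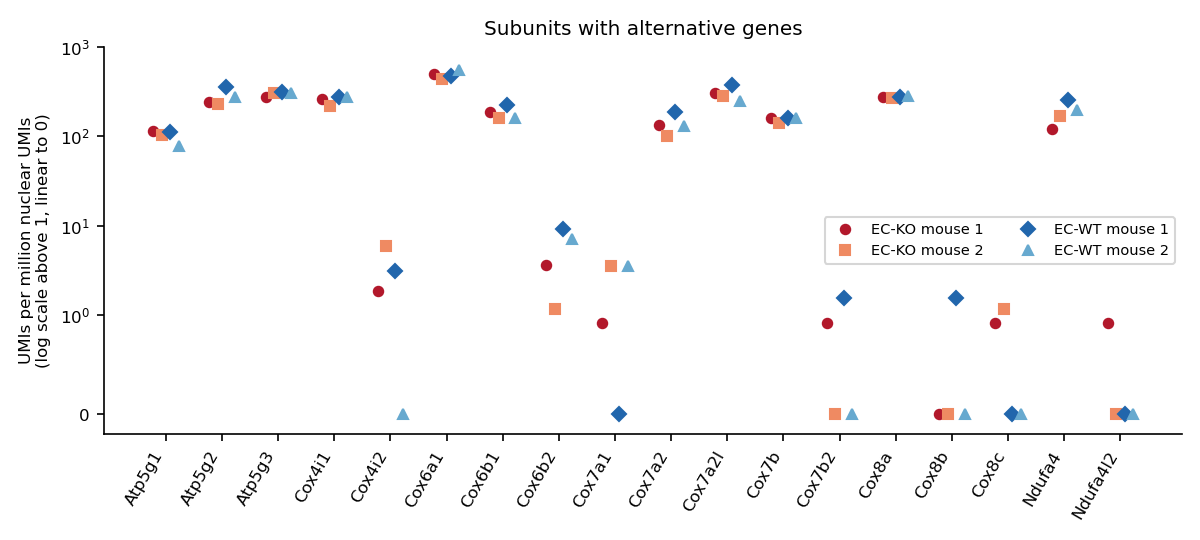
Levels of 18 genes that encode alternative forms of a subunit, in UMIs per 1000000 nuclear UMIs, with 1 symbol per mouse; the axis is logarithmic above 1 and linear from there to 0. The common forms lie from 77.7 to 553 CPM and Cox4i2, Cox6b2, Cox7a1, Cox7b2, Cox8b, Cox8c and Ndufa4l2 at or below 9.25 CPM.

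By complex, ATP synthase (15 nuclear members) took 31.6% of the members' UMIs, complex I (35) 30.4%, complex IV (18) 21.5%, complex III (8) 9.45% and complex II (4) 3.88%, as means of the 4 mice; the remaining members, Cox7a2l, Atp5s and Atp5sl, were put in no complex. The median member of ATP synthase stood at 187 to 233 CPM, and that of complex I at 87.2 to 93.6 CPM, higher for ATP synthase in each mouse. On chrM the 7 complex I rows held 26.9% of chrM UMIs, the 3 complex IV rows 19.7%, the 2 ATP synthase rows 16.5% and mtCytb 11.3%. The ribosomal RNAs held 32.1%, 23.9%, 21.9% and 23.9%, so EC-KO mouse 1 stood apart in this share.

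The ratio of chrM to nuclear UMIs therefore differed by complex. It was 8.80, 12.5, 9.78 and 10.8 for complex III, the highest in each mouse, and 3.79, 5.12, 4.22 and 5.18 for ATP synthase, the lowest in each mouse. Complexes I and IV lay between, with 6.74 to 9.08 and 6.55 to 9.60, and their order changed between mice. Within each complex, EC-KO mouse 2 and EC-WT mouse 2 had higher ratios than EC-KO mouse 1 and EC-WT mouse 1.

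**Figure D3:**
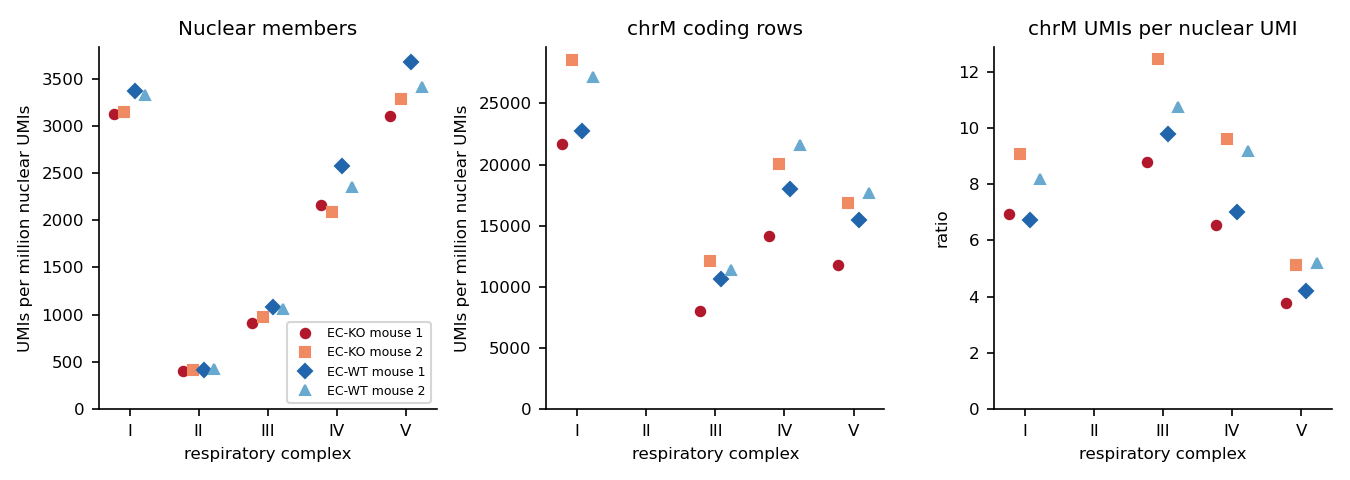
UMIs per 1000000 nuclear UMIs of the nuclear members (left) and of the chrM coding rows (middle) of each respiratory complex, and the ratio of chrM to nuclear UMIs (right), all from 0, with 1 symbol per mouse. Complex II has no chrM gene; the ratio is highest for complex III (8.80 to 12.5) and lowest for complex V (3.79 to 5.18) in every mouse.

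Nuclear respiratory genes are known targets of the factors NRF1, the oestrogen-related receptors (ERR), YY1 and GABP, so RefSeq promoter windows of GRCm38.p6, 250 bases before to 50 after a gene's start, were searched for short strings of letters known from their sites, on both strands. Windows were matched for 69 of the 83 members, 66 by symbol and 3 by a synonym (Atp5f1, Atp5sl and Atp5s). GCGCATGCG (NRF1) was present in 8 of the 69 (11.6%) and in 489 of all 27025 windows (1.81%). AAGATGGCG (YY1) was present in 7 (10.1%) and in 1.49% of all windows, TCAAGGTCA (ERR) in 2 (2.90%) and in 0.407%, and CCGGAAGTG (GABP) in 2 (2.90%) and in 2.06%. The TATA string TATAAA was in 7 (10.1%) and in 14.2% of all windows. No member's window held more than 1 of the first 4 strings. The members' windows had a median GC content of 57.3%, against 52.7% over all windows. A match is a description of letters and not a bound site.

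The NRF1 string lay in Cox6a1, Atp5g2, Atp5l, Atp5k, Uqcr11, Ndufa8, Uqcrc1 and Ndufa11, which ranked 1, 8, 13, 36, 51, 53, 54 and 59 of 83 by level. In 5 of them it overlapped itself on the other strand, shifted by 1 base. The 2 with the highest levels are shown with Atp5l and Uqcr11, whose levels are also given in the comparison of cells. In Atp5l and Uqcr11 the string was matched on the other strand, so its reverse complement is in capitals. Each stretch is on the gene's strand, with the NRF1 letters in capitals:
Cox6a1, chr5:115349077-115349155, minus strand: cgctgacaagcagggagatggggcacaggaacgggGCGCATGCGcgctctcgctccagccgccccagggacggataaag
Atp5g2, chr15:102671048-102671124, minus strand: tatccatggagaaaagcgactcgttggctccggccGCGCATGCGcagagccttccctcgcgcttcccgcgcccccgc
Atp5l, chr9:44920940-44920992, minus strand: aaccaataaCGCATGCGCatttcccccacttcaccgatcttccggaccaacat
Uqcr11, chr10:80406809-80406835, minus strand: tcgccttcaCGCATGCGCtatacgtct

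The YY1 string shared orientation and place. All 7 matches were on the gene's own strand and began 23 to 36 bases after its start. The string contains ATG, the letters of a start codon. Whether the matches lie at translation starts was not tested, and the windows of all genes were not matched for this. They are those of Atp5j2, Ndufc1, Ndufs7, Ndufs6, Ndufs4, Ndufa9 and Atp5sl, ranked 26 to 75 of 83 by level. Of these, 3 are shown with the bases around them, with the YY1 letters in capitals:
Atp5j2, chr5:145191501-145191527, minus strand: caggacttcAAGATGGCGtcactcggt
Ndufs4, chr13:114388045-114388068, minus strand: gcctacaggAAGATGGCGgcggtc
Ndufa9, chr6:126849098-126849124, minus strand: ttgtgggagAAGATGGCGgccgccgtc
The ERR string of Atp5g3, rank 6, began 52 bases before its start on the other strand and is in capitals here:
Atp5g3, chr2:73911335-73911413, minus strand: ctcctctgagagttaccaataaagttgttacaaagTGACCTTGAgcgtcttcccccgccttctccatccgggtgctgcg

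The first comparison asks whether the respiratory transcripts of either genome differ between the mice labelled EC-KO and EC-WT, labels that Epas1 tags did not check and whose cell numbers run against those the study states. chrM took 7.59% and 9.26% of UMIs in the EC-KO mice and 7.90% and 9.29% in the EC-WT mice. The groups overlapped, and the difference of -0.168 percentage points was smaller than the spread between mice (SD 1.19 and 0.985, n = 2 each; exact 2-sided permutation P = 0.667). For the pair on the same flow cell the difference was 1.37 points, with EC-KO higher.

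The nuclear members took 1.00% and 1.02% of nuclear UMIs in the EC-KO mice and 1.15% and 1.09% in the EC-WT mice. The groups did not overlap, nor did their exact 95% binomial intervals. These were 0.986 to 1.02% and 1.00 to 1.04% in the EC-KO mice and 1.13 to 1.18% and 1.06 to 1.11% in the EC-WT mice. They cover counting error only, while the members' share varied over cells with 5.11 to 7.61 times the counting variance. Their separation is therefore no measure of the spread between cells or mice. The difference of -0.106 percentage points gave an exact 2-sided permutation P = 0.33, the smallest that 2 against 2 mice allow. It was -0.13 points within the flow cell pair, -0.195 points as a mean over cells, and -0.122 points without the 13, 6, 3 and 2 cells in which smooth muscle markers outnumbered endothelial markers. Fibroblast markers, at 3142 and 1580 CPM in the EC-KO mice and 753 and 1297 CPM in the EC-WT mice, did not overlap either, and their part in the difference was not tested. Depth also differed between the groups, with a median of 5796 and 7419 nuclear UMIs per cell in the EC-KO mice and 3779 and 5752.5 in the EC-WT mice. With 4 depth bins weighted equally, an alternative chosen after seeing the data, the members' share was 1.10 and 1.02% against 1.29 and 1.18%, a difference of -0.172 points, again without overlap (exact 2-sided permutation P = 0.33). Among the bins the groups overlapped from 4000 to 8000 UMIs, and did not below or above (9 to 55 cells of a mouse per bin). Per 100 ERCC spike-in UMIs the direction turned, with 9.14 and 8.26 member UMIs in the EC-KO mice and 7.93 and 8.50 in the EC-WT mice, which overlap.

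Gene by gene no nuclear member and no chrM row was called. By edgeR's quasi-likelihood test on UMIs summed per mouse, with Benjamini-Hochberg adjustment over 8401 rows, 0 of 75 members and 0 of 16 chrM rows passed an adjusted P of 0.05, where 0.131% of all rows did. At an unadjusted P under 0.05 there were 4 members, all lower in EC-KO (5.33%, against 2.86% of all rows lower and 6.61% in either direction), and 0 chrM rows; DESeq2 also called 0 of each, with 1 member and 1 chrM row under 0.05 before adjustment. The 11 rows called were all higher in EC-KO, and 7 of them, such as Acta2 and Myh11, are among the 11 smooth muscle markers. Without the cells high in smooth muscle markers edgeR called 0 rows, with 455 under an unadjusted P of 0.05.

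The 4 members at an unadjusted P under 0.05 came from different complexes. Ndufa4 had 121 and 167 CPM in the EC-KO mice and 253 and 196 CPM in the EC-WT mice (log2 fold change -0.62, standard error 0.22, edgeR adjusted P = 0.633). Uqcrq, a small complex III subunit, had 87.2 and 94.0 against 137 and 134 CPM (-0.55, SE 0.21, edgeR adjusted P = 0.685). In neither gene did the groups overlap, and in neither did the test pass after adjustment.

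Ndufa2, an accessory complex I subunit, had 108 and 94.0 CPM in the EC-KO mice against 148 and 155 CPM in the EC-WT mice, with a log2 fold change of -0.54. Atp5e, the epsilon subunit in the stalk of ATP synthase, had 139 and 129 against 233 and 166 CPM, also -0.54. The lowest estimate belonged to Atp5sl, at -0.64 with a standard error of 0.42 from 70 UMIs in all. The highest estimates were those of the complex I genes Ndufa9 (0.60), Ndufv2 (0.39), Ndufv3 (0.37) and Ndufs8 (0.32) and of Atp5g1 (0.24), with standard errors of 0.23 to 0.37. Ndufv2 and Ndufv3 sit in the NADH-binding tip of complex I.

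In 27 of 75 members (36.0%) both EC-KO mice lay below both EC-WT mice, and in 6 (8%) both lay above; over all rows tested these shares were 20.7% and 15.7%. The 11 complex IV members tested all had estimates below 0, from -0.62 to -0.01, and so did 11 of 15 of ATP synthase and 5 of 8 of complex III, whereas 15 of 35 of complex I and 2 of 4 of complex II did. Over all rows 50.5% had an estimate below 0. The median log2 fold change was -0.09 for the members, -0.12 for complex IV and 0.04 for complex I, and -0.00 for all rows. The members share cells, libraries and normalization, and these counts carry no test.

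On chrM no row passed the test and the estimates lay on both sides of 0. mt-Rnr1 had 7216 and 6345 CPM in the EC-KO mice and 4604 and 5554 CPM in the EC-WT mice (log2 fold change 0.46, SE 0.22, edgeR adjusted P = 0.757), and mtNd4l had 802 and 842 against 578 and 708 CPM (0.39, SE 0.18, adjusted P = 0.752). Ribosomal RNA of the nuclear genome was also high in EC-KO mouse 1, where Rn45s took 7.21% of nuclear UMIs, against 3.71% in EC-KO mouse 2 and 4.02 and 3.92% in the EC-WT mice. The groups did not overlap in these 2 of 16 rows, both higher in EC-KO (12.5%, against 15.7% of all rows higher), and no chrM row was lower without overlap, against 20.7% of all rows. mtCo3, at the other end of the coding rows, had 3104 and 4100 against 3957 and 4789 CPM (-0.24, SE 0.22). The largest coding rows lay near 0 or below it: mtAtp6 -0.18, mtCytb -0.09, mtNd4 0.00 and mtCo2 -0.15.

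**Figure D4:**
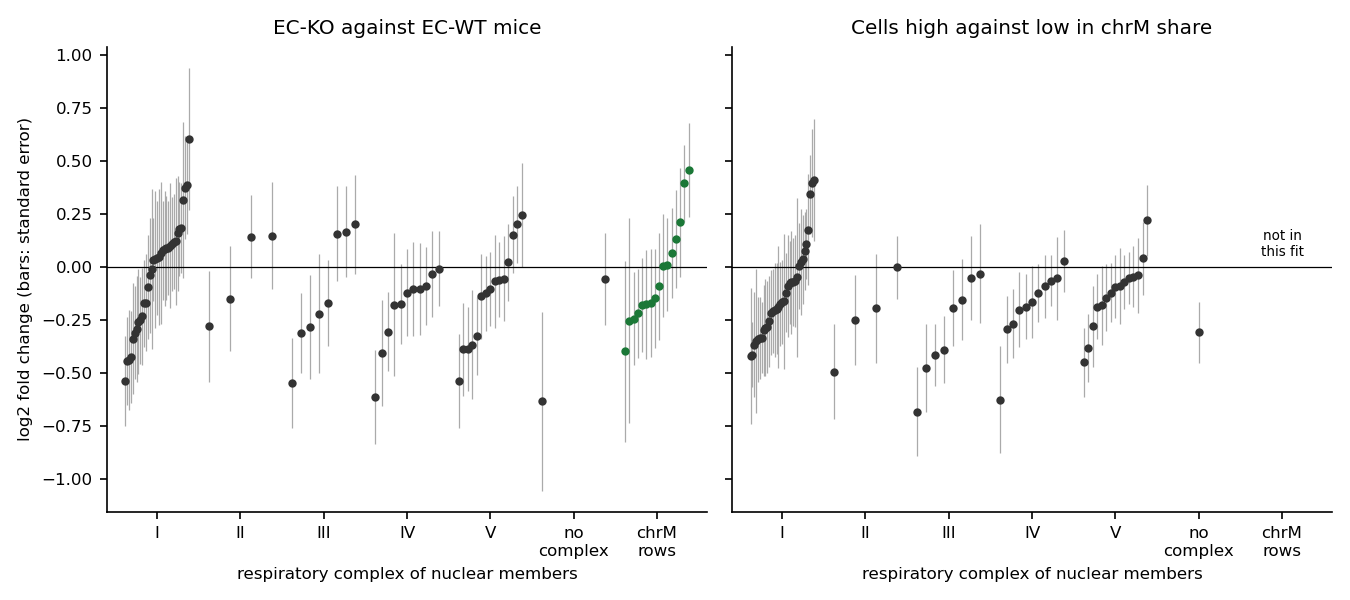
Log2 fold changes of every tested member, grouped by complex and ordered within it, with bars of 1 standard error from edgeR: EC-KO against EC-WT mice (left, 75 nuclear members in black and 16 chrM rows in green) and cells high against low in chrM share (right, 74 nuclear members; chrM rows were not in that fit). No point passes an adjusted P of 0.05; the complex IV points on the left are all below 0, and 62 of 74 points on the right are (83.8%), against 50.5% of all rows tested in either comparison.

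The genes that build and serve the chain gave no call either. Of 4 pathway lists, 32 assembly factors, 18 genes of mitochondrial DNA expression, 8 regulators and 17 carriers and electron carriers could be tested, and 0 of the 75 were called in either direction by edgeR, where 0.131% of all rows were, or by DESeq2. At an unadjusted P under 0.05 edgeR had 1 of them (1.33%, against 6.61% of all rows) and DESeq2 had 0. That gene, named after its value was seen, was Mtpap, the mitochondrial poly(A) polymerase, with 36.7 and 49.3 CPM in the EC-KO mice and 21.6 and 24.7 CPM in the EC-WT mice (log2 fold change 0.92, SE 0.37, edgeR unadjusted P = 0.0281, adjusted P = 0.6995). Estimates lay below 0 in 15 of 32 assembly factors, 10 of 18 genes of mitochondrial DNA expression, 1 of 8 regulators and 9 of 17 carriers, against 50.5% of all rows. Cyc1, the cytochrome c1 of complex III, had 46.8 and 81.1 CPM in the EC-KO mice and 100 and 90.1 CPM in the EC-WT mice (log2 fold change -0.56, SE 0.28, edgeR adjusted P = 0.757). Slc25a4, an ADP/ATP carrier of the inner membrane, had 329 and 318 against 234 and 276 CPM (0.39, SE 0.18, edgeR adjusted P = 0.755). Its relative Slc25a5 had 164 and 189 against 123 and 173 CPM.

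Cycs, the mobile cytochrome c, stood at 136, 139, 140 and 166 CPM. Tfam, which packs and transcribes mitochondrial DNA, stood at 42.2 and 43.5 against 53.9 and 54.8 CPM (-0.30, SE 0.29). Lrpprc and Slirp, partners that stabilise mitochondrial mRNAs, had means of 41.3 and 65.7 CPM, and Polrmt, the mitochondrial RNA polymerase, had 6 to 16 UMIs per mouse. Ppargc1a, a coactivator of mitochondrial biogenesis, had 3, 5, 1 and 3 UMIs.

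The second question is whether the transcripts of the 2 genomes go together from cell to cell. Cells of a mouse varied widely in chrM share, within the limit of 25% set for keeping a cell. In EC-KO mouse 1, the most variable, it ran from 1.39 to 24.5%, with quartiles of 3.97 and 10.3%. The quartiles were 7.15 and 12.2% in EC-KO mouse 2, 5.48 and 9.97% in EC-WT mouse 1, and 6.49 and 10.9% in EC-WT mouse 2. The members' share of nuclear UMIs ranged from 0.399 to 2.08% in the cells of EC-KO mouse 1, with quartiles of 0.832 and 1.26%. Variance over cells was 89.2 to 217 times that of counting alone for the chrM share and 5.11 to 7.61 times for the members' share. Without the cells in which smooth muscle markers outnumbered endothelial markers, the members' share had 3.47 to 6.40 times the counting variance. Every kept cell had at least 1 member UMI, with medians of 57, 74.5, 49.5 and 62.

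Relative to nuclear UMIs, cells with more chrM did not have more of the nuclear members. Spearman's rho between chrM UMIs per nuclear UMI and the members' share was -0.35, -0.16, -0.32 and -0.33 over 157, 98, 114 and 72 cells, a description in which both measures share the denominator. With each cell thinned to 1000 nuclear UMIs rho was -0.29, -0.01, -0.17 and -0.14. The chrM UMIs in both measures include the ribosomal RNAs. For chrM coding rows alone, without thinning, rho was weaker, at -0.25, -0.09, -0.15 and -0.20. chrM rows moved with each other: rho between complex I and complex IV rows of chrM was 0.76 to 0.86, and between chrM coding rows and ribosomal RNAs it was 0.28 to 0.73. Nuclear members of complex I and of ATP synthase had rho of 0.18 to 0.34. These rest on fewer UMIs, with medians per cell of 49.5 to 74.5 for all members and 280.5 to 786 for chrM. The part of counting error in the lower rho was not tested. Divided by ERCC spike-ins in place of nuclear UMIs, which leaves in the amount of RNA per well, chrM and nuclear members had rho of 0.55 to 0.68.

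**Figure D5:**
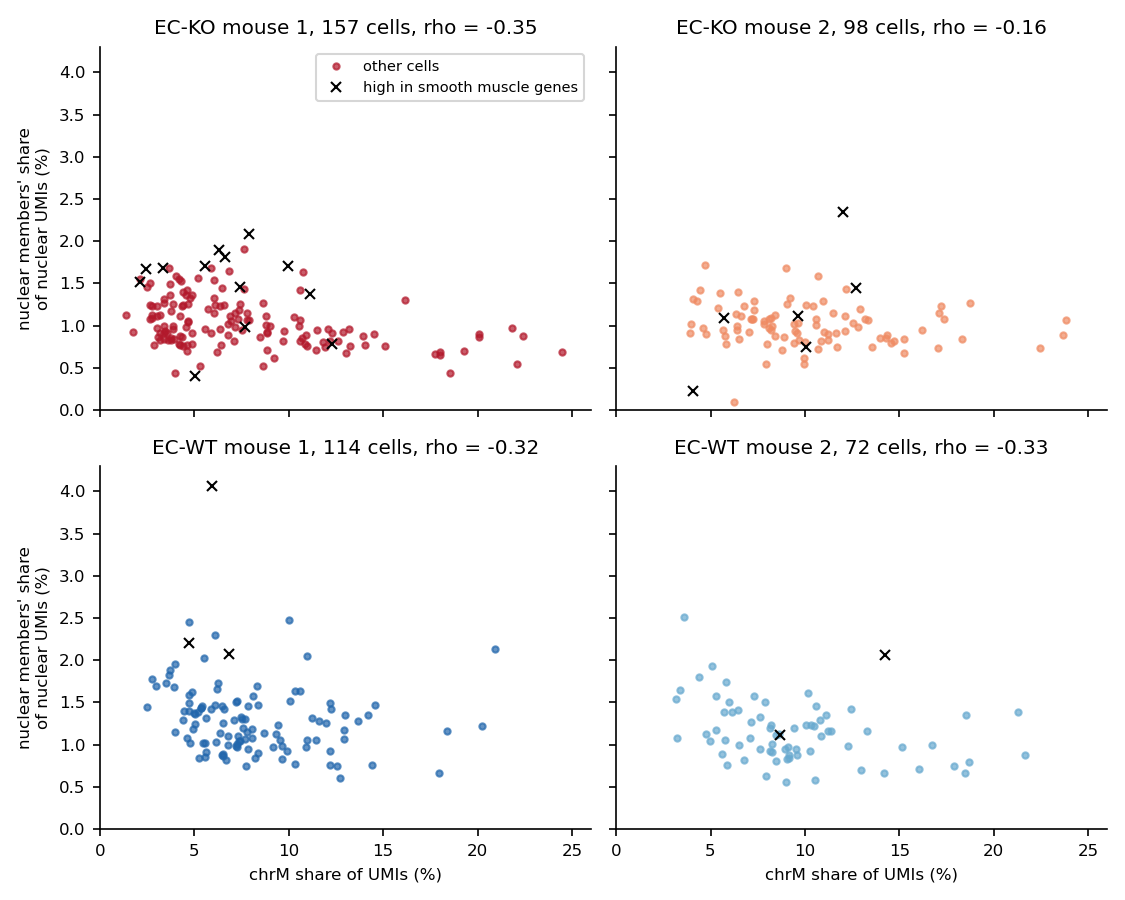
Each kept cell's chrM share of UMIs (horizontal, %) against the nuclear members' share of nuclear UMIs (vertical, %), 1 panel per mouse; crosses are cells with more smooth muscle than endothelial marker UMIs, and rho is Spearman's, given for chrM per nuclear UMI. Of the cells with a chrM share over 15%, 12 of 13, 7 of 12, 1 of 4 and 7 of 9 have a members' share under 1%, as do 71 of 144, 43 of 86, 25 of 110 and 22 of 63 of the other cells of these mice.

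Cells were then split within each mouse and depth quartile at the median chrM share. chrM-high cells had 10.4, 11.9, 9.91 and 11.6% of UMIs on chrM and chrM-low cells had 4.19, 6.84, 5.61 and 7.03%; 112 of the 441 cells lay within 1 percentage point of their split, so this is a range and not a cell type. The members' share was 0.955, 0.992, 1.04 and 1.04% in chrM-high cells and 1.06, 1.05, 1.27 and 1.13% in chrM-low cells. It was lower in chrM-high cells in 4 of 4 mice, by 0.122 percentage points on average (exact sign-flip permutation test, 2-sided, P = 0.13, the smallest that 4 mice allow). With cells thinned to 1000 UMIs the mean difference was -0.0618 points and 2 of 4 mice were lower (exact P = 0.500).

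Markers of other cells also differed between these cells. Smooth muscle markers summed to 5922, 10709, 344 and 2265 CPM in chrM-high cells and to 3432, 3063, 1648 and 337 CPM in chrM-low cells, and genes of the dissociation response were higher in chrM-high cells in 3 of 4 mice, at 753 to 2068 against 860 to 1574 CPM. Fibroblast markers summed to 2855, 1830, 841 and 1618 CPM in chrM-high cells and to 3465, 1364, 658 and 993 CPM in chrM-low cells, higher in chrM-high cells in 3 of 4 mice. Without the cells high in smooth muscle markers the members' share was lower by 0.138 points in chrM-high cells, again in 4 of 4 mice. The parts of the dissociation response and of the fibroblast markers were not tested.

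Of 74 members tested across this split, with mouse as a block, edgeR called 0, where 0.0677% of 5907 nuclear rows were called, and DESeq2 also called 0. At an unadjusted P under 0.05 were 10 members by edgeR, all lower in chrM-high cells (13.5%, against 2.49% of all rows lower and 6.26% in either direction), and 1 by DESeq2. In chrM-high cells of all 4 mice 12 members (16.2%) were lower, against 7.97% of all rows, and 1 member, Ndufa3, was higher in all 4, against 7.31%. The median log2 fold change was -0.17 for the members and -0.00 for all rows.

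Complex III members lay lowest, with a median of -0.29, estimates below 0 in 8 of 8, against 50.5% of all rows, and lower at an unadjusted P under 0.05 in 4 of 8, against 2.49% of all rows. Uqcr11, a small subunit of that complex, had 50.2, 75.9, 68.1 and 87.3 CPM in chrM-high cells and 88.0, 112, 145 and 106 CPM in chrM-low cells (log2 fold change -0.68, SE 0.21, edgeR adjusted P = 0.531). Cox7c, a small complex IV subunit, had 32.9, 68.4, 74.0 and 29.1 against 62.6, 78.9, 106 and 65.3 CPM (-0.63, SE 0.25, edgeR adjusted P = 0.719). Both were lower in 4 of 4 mice and neither passed after adjustment.

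The next lowest were Sdhb, the iron-sulphur subunit of complex II (-0.50), Uqcrq (-0.48) and Atp5l, a membrane subunit of ATP synthase (-0.45). Atp5l had 158, 195, 213 and 164 CPM in chrM-high cells and 221, 195, 299 and 306 CPM in chrM-low cells, lower in 4 of 4 mice but nearly level in EC-KO mouse 2. The highest estimates were those of the complex I genes Ndufa10 (0.41), Ndufs1 (0.39), Ndufa3 (0.34) and Ndufs6 (0.17) and of Atp5d (0.22), with standard errors of 0.17 to 0.29. Ndufa3 had 135, 96.2, 151 and 87.3 CPM in chrM-high cells and 113, 83.3, 109 and 61.8 CPM in chrM-low cells. The 4 rows called in this split were no members and were all higher in chrM-high cells. Named after their values were seen, they were the nuclear long noncoding RNA Malat1 (0.71, SE 0.12, edgeR adjusted P = 0.0407), the collagen gene Col3a1, which is 1 of the 8 fibroblast markers, Lpp and Pcdh7, and were called in 12, 11, 9 and 7 of 18 alternatives. None of the 4 was called with a 10% chrM limit, with read counts, with depth ignored or without the mouse block.

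Depth went with both shares. In cells at or above the median nuclear UMIs of their mouse the members' share averaged 1.02%, and in shallower cells 1.24%, lower in deep cells in 4 of 4 mice (-0.214 points, exact sign-flip permutation P = 0.13). After thinning to 1000 UMIs per cell the difference was -0.171 points, in the same direction in 4 of 4 mice. The chrM share averaged 8.21% in deep and 9.58% in shallow cells, also lower in 4 of 4 (-1.37 points, exact sign-flip permutation P = 0.13). In EC-WT mouse 1 the members' share was 1.46% in 30 cells of 1000 to 2000 UMIs and 1.02% in 26 cells of 8000 or more, and in EC-KO mouse 2 it was 0.924% in 9 cells and 1.01% in 44 cells of the same depths.

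Cells high in smooth muscle markers, 24 in all, were pooled per mouse. The members' share was 1.30, 1.27, 2.93 and 1.19% in these 13, 6, 3 and 2 cells and 0.979, 0.991, 1.13 and 1.08% in the other cells. Cell by cell, 11 of 13, 4 of 6, 3 of 3 and 2 of 2 lay above the pooled share of the other cells of their mouse. In EC-KO mouse 2 the 6 cells ran from 0.220 to 2.35% with a median of 1.10%. In EC-WT mouse 2 the interval of 1.03 to 1.36% for the 2 cells included the value of the other cells. The chrM share showed no such order, with 8.76, 8.79, 6.02 and 9.14% against 7.48, 9.33, 7.92 and 9.29%.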

How the data were processed

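SORT-seq plates of 4 mice, 1 each, were analysed. The authors deposited 3 tables per plate, by gene symbol and well: UMI counts, read counts, and expected counts of transcripts, which equal the UMI counts corrected for 4096 possible identifiers to within 4.55e-13. Per the labels' processing notes, the submitters used BWA 0.7.15, Seurat and GRCm38 (mm10); how reads with several matches were placed is not given in the sources used here. Of 82 members, 6 share 40 of the last 100 bases with another annotated gene, among which only those of Atp5g1 have rows in the files.

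UMIs of kept cells were summed per mouse and tested with edgeR 4.0.16 in R 4.3.3 (TMM, filterByExpr, quasi-likelihood); DESeq2 1.42.0 was the alternative. Shares were compared by exact permutation tests over mice. CPM is UMIs per 1000000 nuclear UMIs, for chrM rows also. Intervals are exact (Clopper-Pearson) at 95%; they and floors of 3 UMIs cover counting error only. Depth was 566088 to 1088901 nuclear UMIs per mouse, with 10.1 to 21.9 reads per nuclear UMI and 23.2 to 40.5 per chrM UMI, so that chrM weighs more in reads than in UMIs. The test was tested on simulated data with 200 genes changed by 2 on the log2 scale: 195 were recovered between genotypes, with 14 others called, and 200 between chrM-high and chrM-low cells, with 6 others; smaller changes were not simulated. No doublet caller was run; an alternative left out cells over 3 times the median UMIs.

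The members and lists were chosen with earlier results of these data known. Genes named are chrM rows with at least 10 UMIs, the 12 highest and 4 lowest tested members, the 5 largest estimates each way in either comparison, the alternative subunit genes, and 10 genes of the pathway lists; the filtered Atp5s, the genes with promoter matches, Mtpap and the called rows were named after their values were seen. Positions are from GENCODE M21 (GRCm38) and promoters, 1 window per gene, from RefSeq (GRCm38.p6); the NRF1 and YY1 strings were shortened to 9 letters after a first search with longer ones. Alternatives were other cell limits, other counts, other scaling, no filter, a replicate block, each mouse left out, thinning, and, chosen after seeing the data, leaving out Rn45s, averaging over cells and weighting depth bins equally.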

Additional observations from a re-analysis of the deposited data

Results flagged for a closer look

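Signal appeared in wells that no comparison used. None of the 120 wells of a plate in rows L to P was kept as a cell, yet they held 933, 1149, 649 and 1526 chrM UMIs and 55, 64, 51 and 84 UMIs of the nuclear members (EC-KO mouse 1, EC-KO mouse 2, EC-WT mouse 1, EC-WT mouse 2), above the 3 UMIs that a count of 0 allows. chrM made up 9.97, 13.6, 12.8 and 15% of UMIs there, against 7.59, 9.26, 7.90 and 9.29% in the kept cells, higher in 4 of 4 plates. Whether a high chrM share was particular to these rows cannot be told from the wells left out as a whole. Over the wells not kept as cells it was 16.4, 18.4, 12.4 and 14.7%. Where the UMIs in rows L to P came from was not tested.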

How the results depend on the processing

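In every alternative run, 0 nuclear members, 0 chrM rows and 0 pathway genes were called between genotypes, and 0 members between chrM-high and chrM-low cells; the lowest adjusted P of a member was 0.0759 between genotypes (edgeR, without EC-WT mouse 2) and 0.270 between cells. The members' share was lower in EC-KO under each alternative but UMIs per 100 ERCC UMIs (0.483), at -0.139 to -0.0721 points with 1 mouse left out, moved to -0.195 as a mean over cells and to -0.172 with 4 depth bins weighted equally. The chrM share difference turned to 1.29 points in reads, 1.37 in the flow cell pair, 0.0878 as a mean over cells and 8.98 per 100 ERCC UMIs, and ranged from -1.01 to 0.672 with 1 mouse left out. The log2 ratio of all chrM rows, ribosomal RNAs included, to members, EC-KO minus EC-WT, was 0.11 (exact permutation P = 0.667). It was 0.42 in the flow cell pair and in reads and 0.25 as a mean over cells. The ratio turned to -0.0369 at a 10% chrM limit, and ranged from -0.0625 to 0.280 with 1 mouse left out. Thinning moved the median rho to -0.155 from -0.325 and the members' difference between cells to -0.0618, while cells away from the middle of each depth quartile gave -0.186.

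Counts of all rows called were less stable. Between genotypes edgeR called 11 rows, but 24 at a minimum of 2000 UMIs, 17 with no chrM limit, 17 with nuclear UMIs as library size, 110 without the filter, and 0 with a 10% chrM limit, without cells high in smooth muscle markers, without cells over 3 times the median or with read counts. With 1 mouse left out it called 5 to 126, of which 5 without EC-KO mouse 2, 20 without EC-KO mouse 1, 126 without EC-WT mouse 1 and 112 without EC-WT mouse 2; the lone mouse is then assumed to vary like the others. Between cells it called 4 rows, but 7 with no chrM limit, 53 without the filter, 24 with the cells away from the middle, 1 without cells high in smooth muscle markers, without cells over 3 times the median or after thinning, and 0 with the 10% limit, reads, depth ignored or no replicate block; with 1 mouse left out it called 1 (without EC-KO mouse 2) to 22 (without EC-WT mouse 1). The causes were not tested.

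Mice with the same number share only that number, with a correlation of their deviations of -0.049 over 8401 rows and 2 pairs. With the replicate number as a block edgeR called 12 rows and 0 members.

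The median standard error of a tested member's log2 fold change between genotypes was 0.22, and changes smaller than 2 on the log2 scale were not simulated. Tested members under 50 CPM on average had as few as 15 UMIs in a mouse, and the 8 members that were not tested had 0 to 18.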
